A study of Mus musculus with 12 samples.

Results

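The retinal ganglion cell is the only neuron that sends an axon out of the retina, and these axons form the optic nerve. Its identity is set by transcription factors of the POU4F (BRN3) family acting with Isl1, and mature ganglion cells are recognised by the RNA-binding protein Rbpms, the surface glycoprotein Thy1, the glutamate transporter Slc17a6 and the synuclein Sncg. Gap43 and Stmn2 act in the axon, Gap43 at growth cones and terminals and Stmn2 on microtubules. In oxygen-induced retinopathy (OIR) the inner retina, where ganglion cells lie, loses capillaries in high oxygen and is then relatively hypoxic in room air.

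The 10 ganglion cell markers described here, Rbpms, Pou4f1, Pou4f2, Pou4f3, Sncg, Slc17a6, Thy1, Gap43, Stmn2 and Isl1, were chosen by gene symbol from 35976 genes in the count table, 24484 of which had at least 1 count. The mRNA of mouse retinas was read in 12 libraries, with 3 for each of 4 groups, which are WT in normoxia or after OIR and Casp1 KO in normoxia or after OIR. WT pups were C57BL/6 mice. By the study's methods, OIR pups were kept in 75% oxygen from postnatal day 7 to 12 and returned to room air for 3 days, and their retinas were taken at postnatal day 15 beside controls kept at 21% oxygen. The labels give the same 3 days after OIR for the pups labelled Casp1 KO, but neither the age nor the oxygen level of those pups is stated, and the knockout allele is not named. Nothing states whether a library held 1 animal or several, so the spread between libraries that the p-values rest on may be technical.

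Total counts ran from 3391203 to 5657873 in 11 libraries and reached 22815830 in WT normoxia replicate 2. The targeted gene Casp1 went against the labels, since it had 126 reads under the Casp1 KO label (6 libraries) and 7 under the WT label (6 libraries). Casp1 averaged 0.19 CPM in WT normoxia and 0.24 CPM in WT OIR, against 4.9 CPM in Casp1 KO normoxia and 4.1 CPM in Casp1 KO OIR. The deepest library, WT normoxia replicate 2, held 0 Casp1 reads. Whether the genotype labels are right was not tested, and directions between genotypes below are those of the labels. WT OIR replicate 3 stood apart from the other libraries of its group, where the chi-square over genes divided by its degrees of freedom was 14.03 and 13.2 against them and 5.15 between those libraries. Levels are CPM, the counts relative to the total of the library, with TMM factors over all 12 libraries. Log2 differences, their standard errors (SE), 95% intervals and adjusted p-values are from edgeR's quasi-likelihood test with Benjamini-Hochberg adjustment over all genes tested. This test pools the spread over genes, so a marker's SE and p-value do not measure its own spread alone. In WT, Slc17a6 and Thy1 both had an SE of 0.141, although their standard deviations (SD) in WT OIR were 1.47 and 20.7 CPM. A gene is said to have risen or fallen where the adjusted p was under 0.05.

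Reads of 9 of the 10 markers were found in every library. Among these, 8 carried at least 324 reads in every library, while Pou4f2 carried 20 to 126 reads. Pou4f3, a family member also needed in the hair cells of the inner ear, was nearly absent, with 13 reads over the 12 libraries. It had 0 reads in all 3 WT normoxia libraries, 1, 3 and 0 reads in WT OIR, 0, 4 and 4 reads in Casp1 KO normoxia, and 0, 1 and 0 reads in Casp1 KO OIR. A count of 3 corresponded to 0.134 CPM in the deepest library and to 0.872 CPM in the shallowest, and no fold is given for Pou4f3. Since QuantSeq places reads at 3' ends and the genes differ in length and 3' end, levels were compared between groups and not between genes. Ratios to Rbpms, given below, were likewise compared only between groups.

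In GENCODE vM21 on GRCm38 (mm10), the markers lie on 7 chromosomes apart from that of Pou4f3. On chromosome 14 are Pou4f1 (chr14:104461676-104467999, minus strand, 3 exons) and Sncg (chr14:34370274-34374789, minus strand, 5 exons). Rbpms (chr8:33782643-33929863, 9 exons) and Pou4f2 (chr8:78433010-78436645, 2 exons) are on the minus strand of chromosome 8. Thy1 (chr9:44043384-44048579, 4 exons) and Slc17a6 (chr7:51622006-51671119, 12 exons) are on the plus strand, as is Stmn2 (chr3:8509360-8561606, 3 exons). Gap43 (chr16:42248442-42340651, 3 exons) and Isl1 (chr13:116298281-116309689, 6 exons) are on the minus strand. Rbpms overlaps Gm26632 on the other strand and Gm26978 on its own, Slc17a6 overlaps Gm45072 and Gap43 overlaps Mir6540. The strand setting of the counting is not given in the sources used here, so reads from these overlapping genes could not be separated.

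Promoter sequences of 5 of the 10 markers were taken from RefSeq (GRCm38.p6), and Pou4f3 was left out of that search. Those of Sncg and Slc17a6, which fell with OIR in both genotypes, and of Isl1, which passed the test in neither, are printed as examples, and the motifs of the other windows follow them. Each runs 5' to 3' on the strand of its gene and stops before the GENCODE gene begins. Capitals mark matches to the motifs searched.
Sncg, chr14:34374790-34374919, minus strand: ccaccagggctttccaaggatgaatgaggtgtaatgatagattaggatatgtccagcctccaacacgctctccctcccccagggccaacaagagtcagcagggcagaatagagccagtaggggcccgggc
Slc17a6, chr7:51621580-51621829, plus strand: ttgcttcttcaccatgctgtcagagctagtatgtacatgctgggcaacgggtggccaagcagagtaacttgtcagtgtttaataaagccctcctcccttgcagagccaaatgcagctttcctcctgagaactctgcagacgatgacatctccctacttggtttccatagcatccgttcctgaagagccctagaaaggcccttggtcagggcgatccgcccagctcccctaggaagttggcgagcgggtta
Isl1, chr13:116309690-116309938, minus strand: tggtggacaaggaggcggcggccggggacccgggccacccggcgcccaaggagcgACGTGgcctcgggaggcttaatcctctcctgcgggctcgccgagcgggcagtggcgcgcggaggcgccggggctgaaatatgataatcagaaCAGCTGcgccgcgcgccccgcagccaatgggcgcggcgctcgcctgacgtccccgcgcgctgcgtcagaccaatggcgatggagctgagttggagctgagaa
The 250 bases before the RefSeq start were searched on both strands for 4 short motifs that do not overlap each other. The core of the hypoxia response element, ACGTG, was in 16.6% of 32851 promoter windows of that length. A POU factor core, ATTAAT, was in 4.39% of the windows. An E-box, CAGCTG, was in 13% of them. The TATA box, TATAAA, was in 12.4%. The Isl1 window held the hypoxia core and the E-box and had a GC content of 71.2%. None of the 4 motifs was in the Sncg window (61.6% GC), in the Pou4f2 window (70.8% GC) or in the window before the upstream Slc17a6 start (53.2% GC). The Pou4f1 window held the E-box, and the window before the second Slc17a6 start held the POU core. Motifs were thus found and missing both among markers that were called and among markers that were not. These matches describe letters and not binding.

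OIR was compared with normoxia in each genotype to find which ganglion cell transcripts differ in the hypoxic retina. In WT retinas 5 of the 10 markers fell and none rose. Of these Thy1 had the largest drop, followed by Slc17a6, Sncg, Stmn2 and Pou4f1. Of 22853 genes tested, 3.88% were called, 1.58% higher and 2.29% lower. Without WT OIR replicate 3, 5 markers fell, of which 4 were among the 5 called with it, and calls over all genes went from 886 to 1130. In retinas labelled Casp1 KO, 5 markers fell and none rose, namely Gap43, Sncg, Slc17a6, Stmn2 and Thy1. The background there was 4.64% of 22387 genes, with 2.61% higher and 2.03% lower. Among 9428 genes that averaged at least 10 CPM, as 8 of the markers did, 5.14% were lower in WT and 4.38% under the Casp1 KO label. Rbpms, Isl1 and Pou4f2 passed in neither genotype. In these bulk samples, fewer ganglion cells, less RNA per ganglion cell and a change in any other cells that transcribe these genes cannot be told apart.

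**Figure D1:**
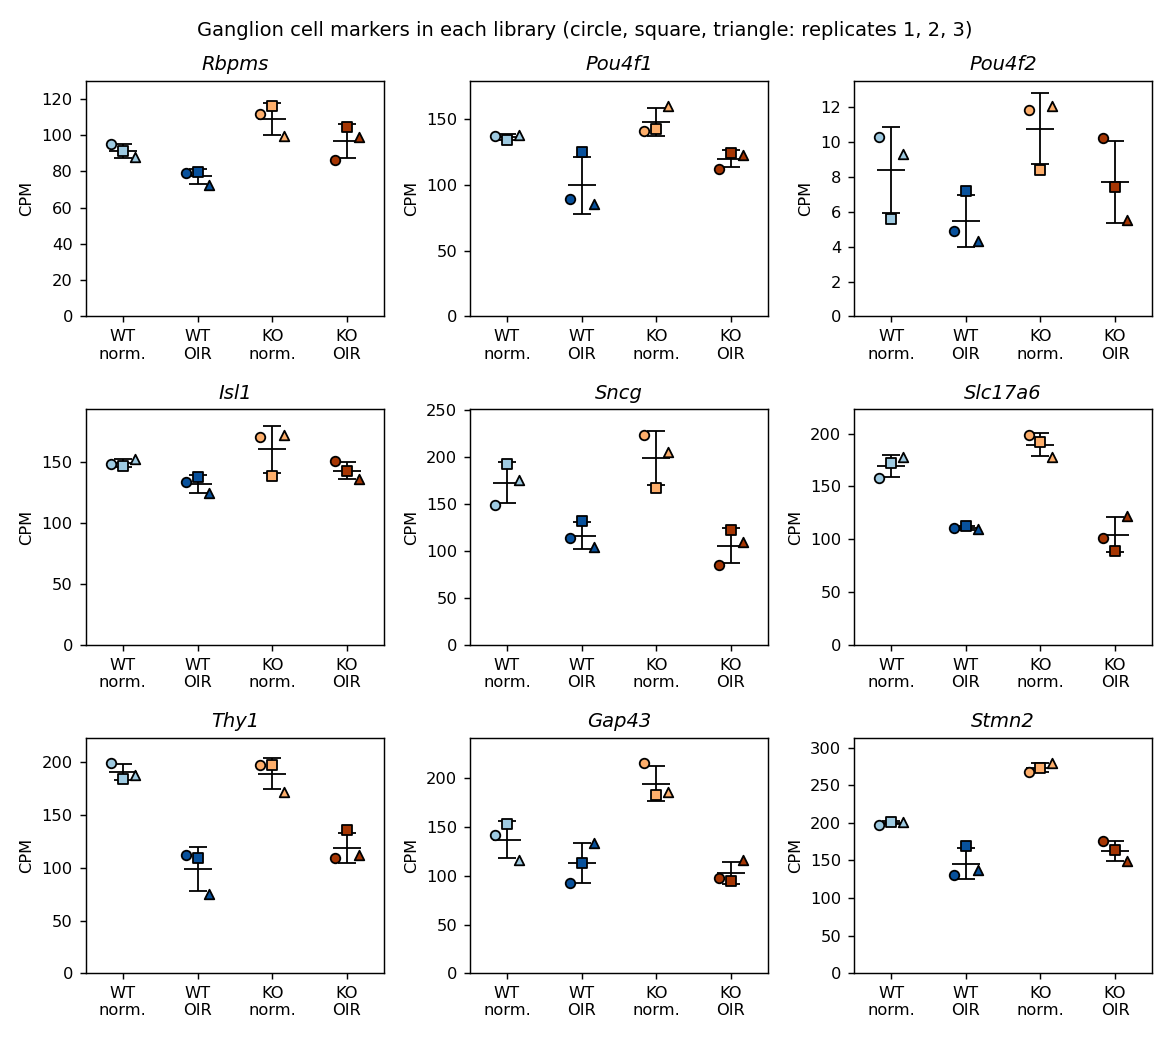
CPM (y axis, from 0) of the 9 detected markers in each library, by group (x axis). Points are libraries, horizontal lines are means and bars are the SD of 3 libraries. Thy1, Slc17a6, Sncg, Stmn2 and Pou4f1 were lower in every OIR library than in every normoxia library of the same genotype. The log2 differences of Rbpms and Isl1 lay between -0.25 and -0.16.

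Among the transcription factors, Pou4f1 (BRN3A) read 137, 134 and 138 CPM in WT normoxia and 89.4, 125 and 85.1 CPM in WT OIR. The WT groups did not overlap, but WT OIR replicate 2 lay close to normoxia. The difference was -0.46 ± 0.15 (log2, SE) with an edgeR adjusted p of 0.0437, the weakest of the calls. It did not pass without WT OIR replicate 3 (-0.35, adjusted p 0.109), nor without any of WT OIR replicate 1 or WT normoxia replicates 1, 2 and 3 (adjusted p 0.148 to 0.192). It also failed with DESeq2 (adjusted p 0.104) and with either other scaling of the libraries, DESeq2's size factors (0.0576) or library size alone (0.0718), and passed in 3 of 10 other settings. In the libraries labelled Casp1 KO, Pou4f1 read 141, 142 and 160 CPM in normoxia and 112, 124 and 123 CPM in OIR. These groups did not overlap either, yet the difference of -0.29 (95% interval -0.50 to -0.077) had an adjusted p of 0.118.

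Pou4f2 (BRN3B), which acts early in ganglion cell differentiation, was low. Its levels were 10.3, 5.61 and 9.35 CPM in WT normoxia and 4.90, 7.18 and 4.36 CPM in WT OIR. In Casp1 KO normoxia it read 11.8, 8.42 and 12.1 CPM, against 10.2, 7.45 and 5.55 CPM in Casp1 KO OIR. The OIR means were lower in both genotypes but the groups overlapped. The intervals were wide, from -1.47 to 0.26 in WT and from -1.19 to 0.25 in Casp1 KO, so a drop as large as that of Thy1 was within them.

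Isl1, a LIM homeodomain factor that bipolar and amacrine cells also use, had the smallest differences of the factors. It read 148, 147 and 153 CPM in WT normoxia and 134, 138 and 124 CPM in WT OIR, without overlap. In Casp1 KO normoxia the levels were 171, 138 and 172 CPM, and in Casp1 KO OIR 150, 142 and 136 CPM, which overlapped. The log2 differences were -0.19 (95% interval -0.46 to 0.085, adjusted p 0.583) and -0.16 (-0.36 to 0.047, adjusted p 0.537).

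Rbpms, the RNA-binding protein used to count ganglion cells, read 95.2, 91.0 and 87.8 CPM in WT normoxia and 79.3, 79.9 and 72.5 CPM in WT OIR. Every WT OIR library was below every WT normoxia library, but the difference of -0.25 (95% interval -0.56 to 0.053) had an adjusted p of 0.516. For Casp1 KO, Rbpms read 112, 116 and 99.2 CPM in normoxia and 86.5, 104.5 and 99.1 CPM in OIR. There the ranges overlapped, and the difference was -0.16 (-0.39 to 0.073, adjusted p 0.580). Both intervals exclude a decrease as large as 1 on the log2 scale.

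Thy1, a glycoprotein anchored in the ganglion cell membrane, read 199, 184 and 188 CPM in WT normoxia and 112, 109 and 74.9 CPM in WT OIR. The means were 190 ± 7.55 and 98.7 ± 20.7 CPM (SD, n = 3). WT OIR replicate 3 was the lowest library, and the other WT OIR libraries were also far below normoxia. Thy1 fell by 0.96 on the log2 scale (SE 0.141, edgeR adjusted p 4.74e-09), and with each library left out in turn the difference stayed between -1.06 and -0.79. For Casp1 KO, Thy1 read 197, 197 and 172 CPM in normoxia and 109, 135 and 112 CPM in OIR. The gap between these groups was again wider than either group's range, and Thy1 fell by 0.66 (SE 0.104, adjusted p 5.72e-08).

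Slc17a6 encodes VGLUT2, which loads glutamate into the synaptic vesicles of ganglion cells. It read 158, 172 and 178 CPM in WT normoxia and 110, 112 and 109 CPM in WT OIR. The WT OIR libraries were close together (SD 1.47 CPM), and Slc17a6 fell by 0.62 (SE 0.141, adjusted p 0.000735). In the libraries labelled Casp1 KO the levels were 199, 192 and 178 CPM in normoxia and 101, 89.3 and 122 CPM in OIR. Slc17a6 fell by 0.85 there (SE 0.106, adjusted p 4.71e-13) and passed in both genotypes with any library left out.

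Sncg, gamma-synuclein, is abundant in ganglion cell bodies and axons. It read 149, 192 and 176 CPM in WT normoxia and 113, 132 and 104 CPM in WT OIR. The groups did not overlap, and Sncg fell by 0.58 (SE 0.140, adjusted p 0.00211). Without WT normoxia replicate 2, the deepest library, the difference was -0.49 and did not pass (adjusted p 0.101). With the Casp1 KO label Sncg read 223, 167 and 205 CPM in normoxia and 85.2, 122 and 109 CPM in OIR, and it fell by 0.90 (SE 0.105, adjusted p 5.8e-15).

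Stmn2, a neuronal stathmin that binds tubulin in growing axons, read 198, 201 and 201 CPM in WT normoxia and 131, 169 and 137 CPM in WT OIR. The groups did not overlap, and Stmn2 fell by 0.47 (SE 0.136, adjusted p 0.0219). It did not pass when WT OIR replicate 1 or any of WT normoxia replicates 1, 2 and 3 was left out, with adjusted p between 0.0974 and 0.130. With the Casp1 KO label Stmn2 read 268, 273 and 279 CPM in normoxia and 175, 163 and 149.5 CPM in OIR. The groups lay far apart relative to their spread, and Stmn2 fell by 0.73 (SE 0.0937, adjusted p 1.75e-12).

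Gap43, a growth cone protein of extending axons, was the marker with the most unequal change. It read 142, 154 and 116 CPM in WT normoxia and 92.6, 113 and 134 CPM in WT OIR. The WT groups overlapped because WT OIR replicate 3 was above WT normoxia replicate 3. The difference was -0.29 (95% interval -0.58 to -0.012, adjusted p 0.356), and without WT OIR replicate 3 it was -0.43 and passed (adjusted p 0.0256). In the Casp1 KO groups Gap43 read 216, 183 and 186 CPM in normoxia and 98.3, 94.6 and 116 CPM in OIR. It fell by 0.91 (SE 0.106, adjusted p 4.89e-15).

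**Figure D2:**
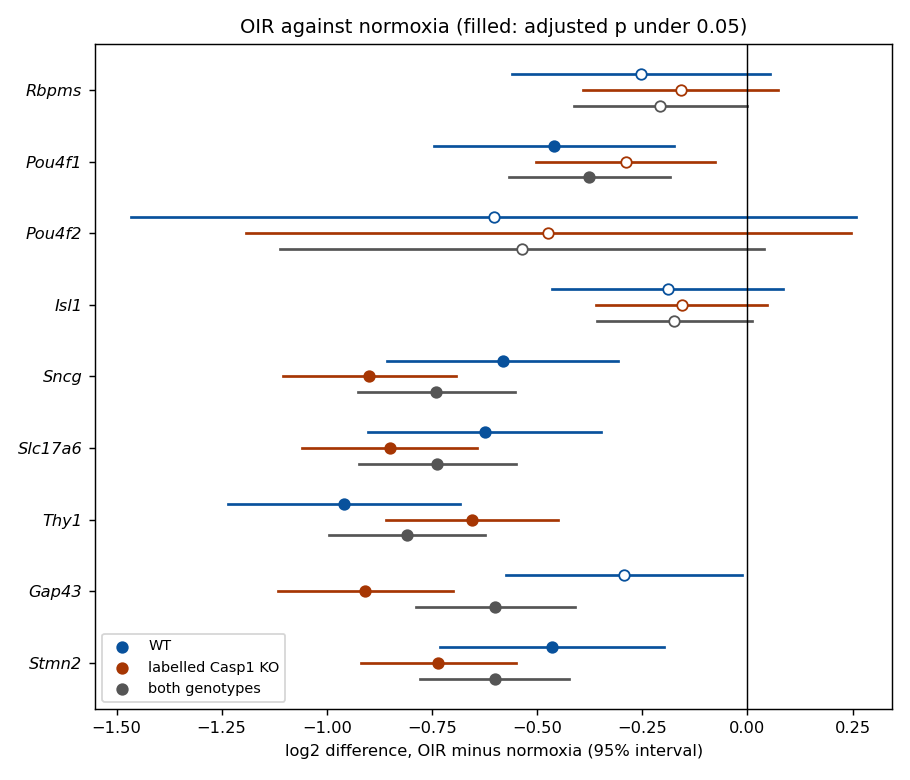
Log2 difference of each marker, OIR minus normoxia (x axis), with its 95% interval, in WT, in libraries labelled Casp1 KO and over both genotypes. Filled points passed an adjusted p of 0.05. All 27 points lie below 0, and Rbpms, Pou4f2 and Isl1 are open in each fit.

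Counting groups that do not overlap gave a broader picture in WT. In WT 7 markers (Rbpms, Pou4f1, Sncg, Slc17a6, Thy1, Stmn2 and Isl1) were lower in every OIR library than in every normoxia library, against 8.16% of all genes. In the Casp1 KO groups 6 markers (Pou4f1, Sncg, Slc17a6, Thy1, Gap43 and Stmn2) did so, against 8.58% of all genes. An exact permutation test of 3 against 3 libraries has 20 assignments and cannot give a two-sided p below 0.1. The median log2 difference of the 9 markers other than Pou4f3 was -0.47 in WT and -0.66 under the Casp1 KO label, beside medians over all genes tested of 0.037 and -0.0020.

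A fit of OIR to all 12 libraries, adjusted for genotype, was added after the data had been seen. It called 6 markers as lower, where 4.89% of 24484 genes were called, 2.32% higher and 2.57% lower. Among the 9428 genes that averaged at least 10 CPM, 10.8% were called, 4.58% higher and 6.18% lower. Thy1 fell by 0.81 (adjusted p 8.25e-15), Sncg by 0.74 (2.35e-12), Slc17a6 by 0.74 (4.32e-12), Stmn2 by 0.60 (5.4e-09), Gap43 by 0.60 (7.98e-08) and Pou4f1 by 0.38 (0.00475). These 6 passed with each of the 12 libraries left out. For Pou4f1, Sncg, Slc17a6, Thy1 and Stmn2 an exact two-sided permutation test of log2(CPM + 0.5) within genotypes gave p = 0.005, the smallest its 400 assignments allow. Rbpms differed by -0.21 (95% interval -0.41 to -0.0021, adjusted p 0.346) with an exact permutation p of 0.01. Isl1 differed by -0.17 (-0.36 to 0.011, adjusted p 0.406) with an exact permutation p of 0.025.

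Within each library the markers were also set against Rbpms, whose own difference did not pass. This ratio describes unequal change between groups, not the relative abundance of the genes, and does not show that Rbpms was constant. Thy1 stood at 2.08 ± 0.0567 times Rbpms in WT normoxia (SD, n = 3) and at 1.27 ± 0.207 in WT OIR. For Casp1 KO the Thy1 ratio was 1.73 ± 0.0315 in normoxia and 1.23 ± 0.0876 in OIR. For Slc17a6 the ratio moved from 1.86 ± 0.186 to 1.43 ± 0.0639 in WT and from 1.74 ± 0.0738 to 1.08 ± 0.201 under the Casp1 KO label. The Gap43 ratio was 1.503 in WT normoxia and 1.475 in WT OIR, whereas it was 1.79 and 1.07 under the Casp1 KO label. The Isl1 ratio was 1.64 in normoxia and 1.71 in OIR for WT, and 1.48 and 1.49 for Casp1 KO.

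**Figure D3:**
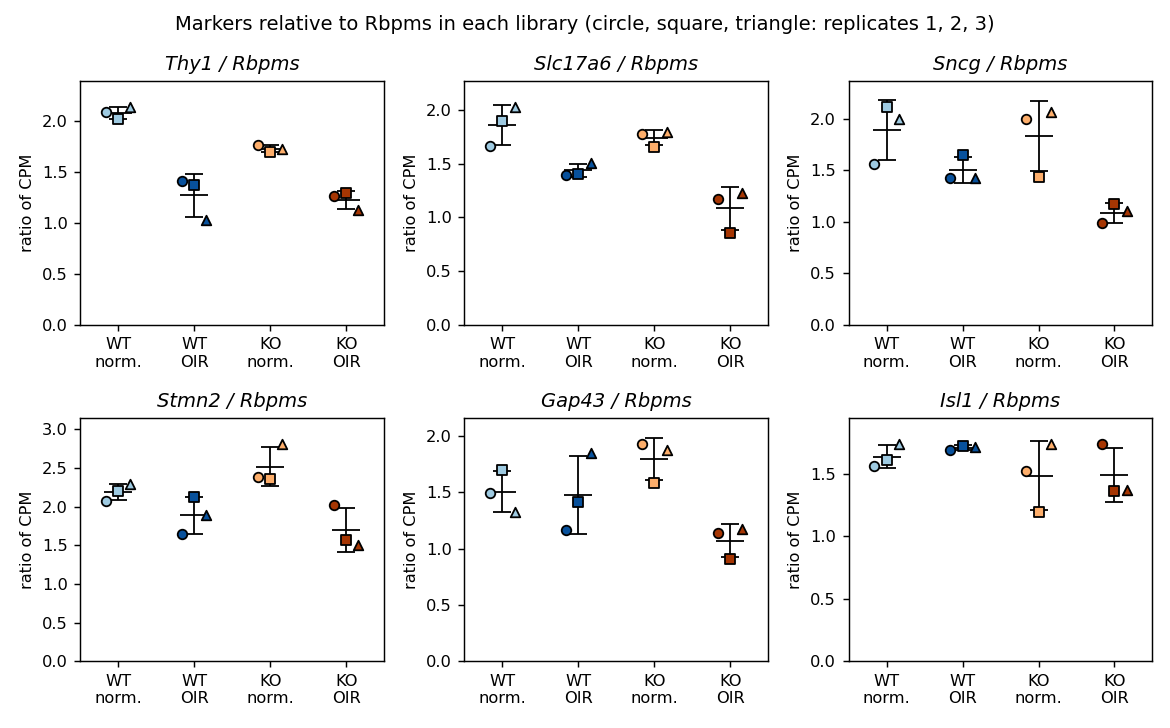
Ratio of the CPM of 6 markers to that of Rbpms in the same library (y axis, from 0) by group (x axis). Points are libraries, horizontal lines means and bars the SD of 3 libraries. The ratios of Thy1 and Slc17a6 were lower in every OIR library than in every normoxia library of the same genotype. The mean ratio of Gap43 went from 1.79 to 1.07 under the Casp1 KO label, and that of Isl1 stayed between means of 1.48 and 1.71.

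The genotypes were then compared within normoxia and within OIR. In normoxia 2 of the 10 markers were higher in the libraries labelled Casp1 KO, the axonal pair Gap43 and Stmn2. Of 22480 genes tested, 1.04% were called, 0.476% higher and 0.56% lower. Among the 9428 genes that averaged at least 10 CPM, 2.21% were called, 0.976% higher and 1.23% lower. Gap43 rose by 0.50 (SE 0.0975) and Stmn2 by 0.46 (SE 0.0885), each with an edgeR adjusted p of 0.000111. Gap43 averaged 195 ± 18.2 CPM against 137 ± 19.2 CPM in WT (SD, n = 3), and Stmn2 273 ± 5.85 against 200 ± 1.93 CPM. Both calls held with any of the 6 libraries left out. Rbpms (0.26, adjusted p 0.472) and Pou4f1 (0.12, adjusted p 0.709) were also higher in every Casp1 KO normoxia library than in every WT normoxia library, as were 5.91% of all genes, without passing the test. Thy1 differed by -0.0053 (95% interval -0.19 to 0.18). This comparison shares its WT normoxia libraries with that of OIR in WT, and its Casp1 KO normoxia libraries with that of OIR under the Casp1 KO label.

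Within OIR none of the 10 markers passed between genotypes, where 0.575% of 22774 genes did, 0.263% higher and 0.312% lower. Among the 9428 genes that averaged at least 10 CPM, 1.28% passed. DESeq2 also called 0 markers, and 1 marker, Rbpms, had an unadjusted edgeR p under 0.05. Rbpms was 0.32 higher under the Casp1 KO label (95% interval 0.015 to 0.63, adjusted p 0.552) and did not overlap with WT OIR, as was so for 5.41% of all genes in that direction. Gap43 averaged 103 ± 11.4 CPM in Casp1 KO OIR and 113 ± 20.6 CPM in WT OIR (SD, n = 3), a difference of -0.14 (-0.43 to 0.16). Stmn2 averaged 163 ± 12.8 and 146 ± 20.6 CPM, a difference of 0.16 (-0.12 to 0.43).

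The interaction of OIR and genotype tests whether the 2 OIR differences are unequal. It called 1 marker, Gap43, where 1.13% of 24484 genes were called, 0.604% higher and 0.527% lower. Among the 9428 genes that averaged at least 10 CPM, 2.51% were called, 1.47% higher and 1.04% lower. Gap43 changed by 0.64 more in the downward direction under the Casp1 KO label (-0.64, SE 0.179, 95% interval -0.99 to -0.29, adjusted p 0.0368). The call rested on single libraries, since it passed in 3 of the 12 fits that left out a library, with adjusted p from 0.00558 to 0.271. Without WT OIR replicate 3 the interaction was -0.50 (adjusted p 0.0822). The order of Gap43 levels was Casp1 KO normoxia first, then WT normoxia, WT OIR and Casp1 KO OIR, and each of the last 3 overlapped with its neighbour in that order. For Stmn2 the order was Casp1 KO normoxia, WT normoxia, Casp1 KO OIR and WT OIR, of which the OIR groups overlapped. The interactions of Sncg (-0.34, 95% interval -0.69 to 0.0027), Stmn2 (-0.29, -0.62 to 0.031), Thy1 (0.28, -0.064 to 0.62) and Slc17a6 (-0.25, -0.60 to 0.097) did not pass, with adjusted p from 0.515 to 0.718.

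Other ganglion cell genes were counted from a list of 29. In WT 9 of them fell and 2 rose with OIR, with a median log2 difference of -0.53. The 4 with the smallest p were Cartpt, a neuropeptide of direction-selective ganglion cells (-1.22), the calcium-binding protein Calb2 (-0.97) and the nicotinic receptor subunits Chrna6 (-1.04) and Chrnb3 (-1.37). The genes that rose were Zic1 (1.01) and Crhbp (0.79), which are named here after their values were seen. Under the Casp1 KO label 9 fell and 1 rose, with a median of -0.37. Calb2 (-1.12), Nrn1 (-1.48), Chrna6 (-1.29) and Rbpms2 (-1.08), the paralog of Rbpms, had the smallest p, and Crhbp again rose (0.66). The WT count was 7 without WT OIR replicate 2, where calls over all genes went from 886 to 682. Calb2 is also transcribed in amacrine cells. Between genotypes in normoxia Cartpt was lower (-0.57) and Tubb3 higher (0.35) under the Casp1 KO label, and within OIR none of the 29 passed with edgeR, where 4 had an unadjusted p under 0.05, and 1 passed with DESeq2.

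All 4 neurofilament genes, the intermediate filaments of large axons, fell in both genotypes. The WT differences were -1.08 for Nefm, -1.13 for Nefh, -0.92 for Nefl and -0.54 for Ina, and those under the Casp1 KO label were -1.16, -1.22, -0.92 and -0.43. Thy1 was the one marker whose WT drop was of the size of Nefl. Of 17 genes of axon growth and the neuronal cytoskeleton, 6 fell and 1 rose in WT, led by Stmn3 (-0.95), Tubb2a (-0.76), Sncb (-0.61) and, upward, Tubb2b (0.74). That WT count was 4 without WT normoxia replicate 1, where calls over all genes went from 886 to 545. Under the Casp1 KO label 3 fell and 1 rose, including Stmn3 (-0.77), Tubb2a (-0.53) and Tubb2b (-0.37). Of 16 genes of the response to axon injury, 2 rose in WT, Hrk (1.76) and Lgals3 (1.82), and none fell, with a list median of 0.41. Over all genes tested 1.58% rose in WT. Both genes had few reads in WT normoxia replicates 1, 2 and 3, with 19, 137 and 9 for Hrk and 7, 116 and 2 for Lgals3. Only Jun (0.60) rose under the Casp1 KO label, which is 1 of 16 where 2.61% of all genes tested rose, and 15 did not pass.

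**Figure D4:**
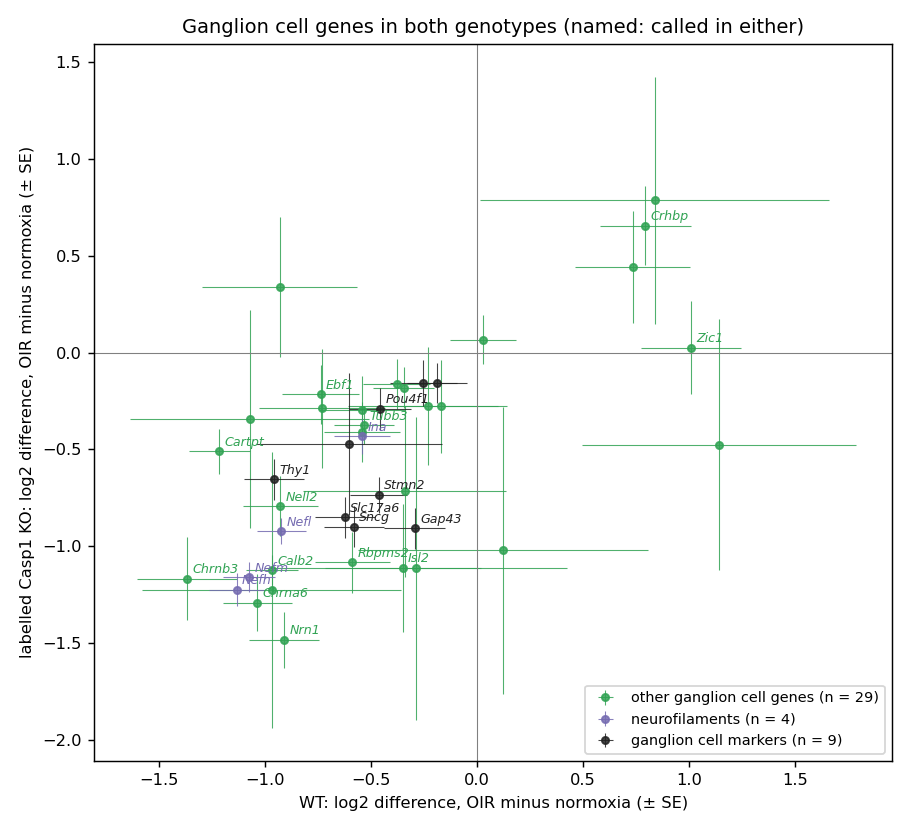
Log2 difference of OIR minus normoxia in WT (x axis) and under the Casp1 KO label (y axis), with SE bars, for the 9 markers, the 29 other ganglion cell genes and 4 neurofilaments. Genes called in either genotype are named. Nefm and Nefh lie below all 9 markers on both axes, and Gap43 lies farther from 0 on the y axis (-0.91) than on the x axis (-0.29).

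Marker lists of other cell types moved beside these results, and their part in them was not tested. In WT OIR 8 of 13 amacrine genes fell. The summed level of all 13 ran from 548 to 687 CPM against 921 to 997 CPM in WT normoxia. Under the Casp1 KO label none of the 13 amacrine genes passed with edgeR (3 had an unadjusted p under 0.05), at 748 to 806 CPM in OIR and 701 to 767 CPM in normoxia. The summed ganglion cell markers were 845 to 986 CPM in WT OIR, 1236 to 1281 CPM in WT normoxia, 928 to 983 CPM in Casp1 KO OIR and 1418 to 1538 CPM in Casp1 KO normoxia. Of 6 Muller glia genes 3 fell in WT. The summed level of all 6 was 2697 to 2845 CPM in WT normoxia and 2115 to 2242 CPM in WT OIR. Under the Casp1 KO label 5 of the 6 rose, and the sum of all 6 was 1926 to 2076 CPM in normoxia and 2788 to 3009 CPM in OIR. In Casp1 KO normoxia 5 of 6 were lower than in WT normoxia, the comparison in which Gap43 and Stmn2 were higher. Of 5 horizontal cell genes 2 fell in WT and 1 fell under the Casp1 KO label. All 5 summed to 297 to 323 CPM in WT normoxia and 198 to 222 CPM in WT OIR. Under the Casp1 KO label the sums were 219 to 244 CPM in normoxia and 224 to 246 CPM in OIR.

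Oligodendrocyte genes, which in mice mark the myelinated optic nerve and not the retina, differed between the normoxia groups. Their summed level was 253 to 313 CPM in WT normoxia, 60.5 to 71.3 CPM in WT OIR, 38.5 to 50.0 CPM in Casp1 KO normoxia and 46.0 to 57.4 CPM in Casp1 KO OIR. In WT 6 of 8 fell with OIR and under the Casp1 KO label none of the 8 passed (0 at an unadjusted p under 0.05), while all 8 were lower in Casp1 KO normoxia than in WT normoxia. These are the groups between which Gap43 and Stmn2 differed. How much optic nerve each library held was not measured, and its part in the marker differences was not tested. Rods, the most numerous cells, summed to 37680 to 45140 CPM in WT OIR and 40210 to 42920 CPM in WT normoxia, with 1 of 8 genes higher in WT OIR. Rod sums were 40410 to 43420 CPM in Casp1 KO OIR and 39440 to 41030 CPM in Casp1 KO normoxia, where 3 of the 8 genes rose and 1 fell. Microglia genes summed to 55.1 to 69.4 CPM in WT normoxia and 89.1 to 100.1 CPM in WT OIR, with 1 of 7 higher. In the Casp1 KO groups they summed to 45.9 to 60.9 CPM in normoxia and 88.0 to 107.1 CPM in OIR, with 2 of 7 higher, and T cell genes summed to at most 1.02 CPM in any library.

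**Figure D5:**
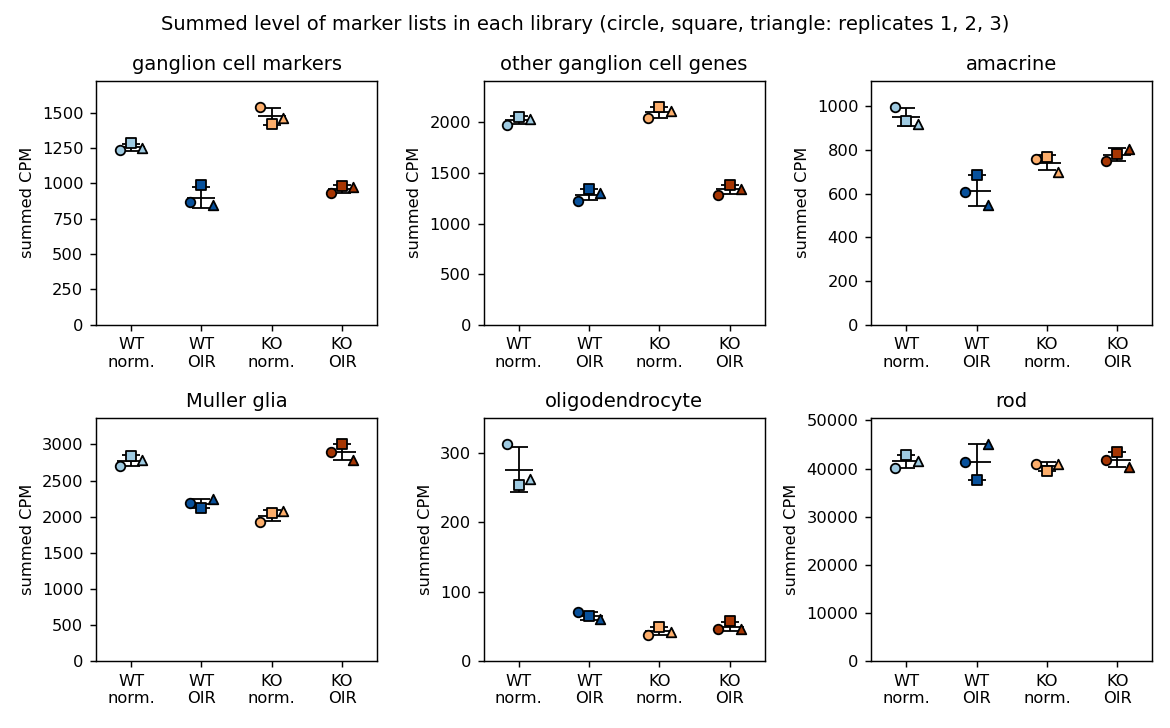
Summed CPM (y axis, from 0) of 6 marker lists in each library by group (x axis). Points are libraries, horizontal lines means and bars the SD of 3 libraries. Both ganglion cell lists were lower in all OIR libraries, amacrine genes were lowest in WT OIR, and oligodendrocyte genes were high in WT normoxia alone.

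The genes whose levels followed the markers most closely were found by the root mean square (RMS) difference of log2 CPM, centred on each gene's mean over the 12 libraries, among 9420 genes above 10 CPM. Only the 3 markers with the widest range of group means were used. Nearest to Thy1 were Sparcl1 (0.101), Ywhah (0.123) and Uchl1 (0.126). Sparcl1 averaged 412 CPM in WT normoxia, 236 in WT OIR, 379 in Casp1 KO normoxia and 257 in Casp1 KO OIR. Nearest to Sncg were Jdp2 (0.139), Hmgn5 (0.176) and the axonal motor Kif5a (0.176). For Gap43 the nearest genes were farther than the first of Thy1 and Sncg, with Samd12 (0.167), B930041F14Rik (0.172) and Gdap1 (0.175) first. Among the markers themselves Rbpms and Isl1 were closest (0.170) and Thy1 and Gap43 farthest apart (0.380). All genes were read in the same libraries and groups, so these values describe a pattern only.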

How the data were processed

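Retinal RNA was made into QuantSeq 3' mRNA FWD libraries and sequenced (1 x 75 bp) by the authors, who aligned reads to mm10 with STAR 2.7.5a and counted them per gene with HTSeq 0.6.1 (versions from the submitters' processing notes). The deposited values are raw counts per gene symbol. The annotation, strand setting and treatment of multi-mapped reads are not given in the sources used here. Groups came from the sample titles. The table had 0 entries that name no gene.

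Counts were tested in R 4.3.3 with edgeR 4.0.16 (TMM, glmQLFit, glmQLFTest, genes with at least 1 count, prior count 0.125, Benjamini-Hochberg, 0.05), each pair of groups on its own 6 libraries and the interaction on 12, without the replicate block. SEs came from the fold change and F statistic. Alternatives were DESeq2 1.42.0, other scalings, filters and tests, the block, thinning of the deepest library and leaving out each library. Scripts were tested on simulated data. Intervals and the 3-count floor cover sampling of these libraries only, as no molecular identifiers are described. All 10 markers are named, and from each list up to 4 genes with the smallest p per comparison. Markers and lists were chosen with earlier results of these data known.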

Additional observations from a re-analysis of the deposited data

Results flagged for a closer look

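The edgeR interaction test called 5 of the 76 genes of the ganglion cell, neurofilament, axon growth and axon injury lists. The OIR differences of these 5 were unequal between the genotypes. The test called 1.13% of 24484 genes tested, and 2.51% of the 9428 that averaged at least 10 CPM. It also called 6 amacrine, 4 Muller glia, 6 oligodendrocyte, 1 horizontal and 1 other bipolar gene. Values are given as the log2 difference under the Casp1 KO label minus that in WT. Gap43 stood at -0.64 (adjusted p 0.0368) and was the 1 marker among them. Of the others, Cartpt stood at 0.68 (adjusted p 0.0275), falling by 1.22 in WT and by 0.51 under the Casp1 KO label. The tubulin Tubb2b stood at -1.13 (adjusted p 3.32e-06), rising by 0.74 in WT, where WT OIR replicate 3 held 1051 reads against 350 and 531 in replicates 1 and 2. The microtubule-associated protein Mapt stood at 0.56 (adjusted p 0.0347) and beta-synuclein, Sncb, at 0.50 (adjusted p 0.0353). Mapt and Sncb fell in WT, and under the Casp1 KO label their differences were 0.084 and -0.088.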

How the results depend on the processing

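In WT, the 5 called markers became 3 with the likelihood ratio test and 3 with the filterByExpr filter. Calls over all genes went from 886 to 681 and 586 in these fits. With DESeq2, DESeq2's size factors, library size alone and the filter of 10 counts 4 markers passed, Pou4f1 being lost in each (adjusted p 0.104, 0.0576, 0.0718 and 0.0979). Calls over all genes were 705, 876, 867 and 603 there. Leaving out a library gave 2 to 5 markers and 545 to 1130 genes. Without WT normoxia replicate 2 it gave 2 markers and 580 genes. Thy1 and Slc17a6 passed in every one of these fits. Under the Casp1 KO label 6 markers passed where each library had to hold 10 counts, and 5 in every other fit. Calls over all genes were 1038 in the main fit there and 1064 with that filter. The call of Gap43 in the interaction was lost (0 markers) with DESeq2, the likelihood ratio test, filterByExpr and the filter of 10 counts in each library (adjusted p 0.0784, 0.128, 0.104 and 0.0764). Interaction calls over all genes went from 277 to 225, 181, 139 and 152 in these fits. Leaving out a library gave 0 to 1 markers and 174 to 597 genes. The cause was not tested.

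Differences near 0 changed sign. Thy1 between genotypes in normoxia was 0.0017 with DESeq2 size factors, 0.0029 with library size alone and with DESeq2, 0.0046 with filterByExpr, 0.0034 with the filter of 10 counts, and -0.039 to 0.059 with a library left out. Within OIR the genotype differences of Gap43, Sncg and Slc17a6 ran from -0.26 to 0.015, from -0.26 to 0.0054 and from -0.22 to 0.011 with a library left out. The interaction of Isl1 was -0.011 with library size alone, -0.012 with the filter of 10 counts and -0.014 with WT normoxia replicate 2 thinned, and ran from -0.085 to 0.062 with a library left out, that of Pou4f2 from -0.14 to 0.36. Of 503 single values under other settings, 481 kept their direction and side of the threshold.

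Same-numbered replicates of different groups correlated at -0.050 to 0.17, not all over 0.1, so the numbers were not taken as pairs. With the replicate block 4 markers passed in WT, Pou4f1 being lost (adjusted p 0.0601), and 794 of all genes were called. The block changed no other marker call. Pou4f3, with 13 reads over the 12 libraries, was given no fold.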
